A study of Oryza sativa with 12 samples.

Results

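The 59 genes described here were listed as different between short days (SD) and long days (LD) at the glume primordium differentiation stage of rice Nongken 58S and were absent from the list for the pistil/stamen primordium forming stage. They were chosen by that presence and absence: 30 genes were in both lists, 75 were in the glume-stage list alone, and 16 of the 75 were set aside by name. The 2 lists together held 275 genes. Nongken 58S is a photoperiod-sensitive male sterile line, sterile when its inflorescences develop in LD and with fertility partly recovered in SD, and its RNA was measured in the second fully expanded leaf, not in the inflorescence. All plants were given SD only once they were seedlings with several leaves. They stayed in SD until the secondary branches of the inflorescence formed and were then split. G-SSD2 leaves came from plants kept in SD (10 h light and 14 h dark) and G-SLD2 leaves from plants moved to LD (15 h light and 9 h dark), with 3 biological repeats in each group at each of the 2 stages, on 12 arrays in all. The plants were of 1 line and grown outdoors, and all leaves were taken at 02:00 h, a single time of day, by the sample names. The sample headings in the glume-stage list carry the letter of the later stage, and the columns were read as glume-stage arrays from the name of that list.

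Day length is read in the leaf, where photoreceptors and the circadian clock together set when many genes are expressed, and the leaf sends signals on to the developing inflorescence. The leaf is also where chloroplast genes are transcribed, sugars are made and exported, and hormones such as gibberellin and abscisic acid are adjusted to the light regime. In bulk leaf RNA, fewer cells of a type and less RNA per cell cannot be told apart. No leaf marker gene could be checked, because the array table used here pairs no probe set with a gene and the lists hold only genes that passed them.

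Every member met a bound on the ratio of the mean G-SSD2 signal to the mean G-SLD2 signal (at least 2, or at most 0.5). The methods also name a per-gene test and a P threshold after the fold. The deposited list holds P values on both sides of that threshold. It is longer than the paper's count of genes that passed both fold and P at this stage. Some listed genes therefore fall outside that count, and how many of the 59 do was not counted. Whether a looser P threshold helped form the list is not settled here. The signals below therefore describe the genes and test nothing. Of the 59, 32 had a higher and 27 a lower mean signal in G-SSD2. The higher genes had ratios between 2.01 and 3.88 with a median of 2.29, and the lower genes had ratios between 0.161 and 0.493 with a median of 0.382. Expressed as a fold in either direction, the median was 2.37, against 3.07 for the other 46 genes listed at this stage. Among the members 1 gene reached 5-fold, against 8 of those 46. Those 46 hold the 30 genes in both lists and the 16 set aside by name, so nothing is read from the difference. Just inside the threshold were pyruvate dehydrogenase kinase at 2.01 and SAPK9 at 0.493, and no gene just outside it was listed. Over the 25360 probe sets kept from the whole array, after quantile normalization, 1.58% were at least 2-fold higher in G-SSD2 on average. At least 2-fold lower were 1.75%. Nothing is read from the members' own count, because the ratio chose them.

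Every G-SSD2 signal lay above every G-SLD2 signal in 31 of the 32 higher genes, and below in 25 of the 27 lower genes. Across the array the shares were 4.49% above and 3.9% below, or 0.848% and 0.631% when the 2-fold ratio was also asked for. Of the probe sets that were 2-fold higher, 53.6% had separate ranges, and of those 2-fold lower, 36.0% did. These array shares are of quantile-normalized signals, unlike the members' own signals. With signals as deposited, 1566 of 25360 probe sets lay above and 620 below, against 1138 and 988 after quantile normalization. Nothing is read from the members' larger shares, since a list selected on a P value as well as on fold would favour separate ranges. Among the other 46 listed genes, 45 had separate ranges. The 3 members with touching ranges were LOC_Os03g12700.1, LOC_Os09g04160.1 and the catalase gene LOC_Os02g02400. Separation was often narrow, since in 7 of the 59 genes the nearest signals of the 2 groups were at least 2-fold apart.

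**Figure D1:**
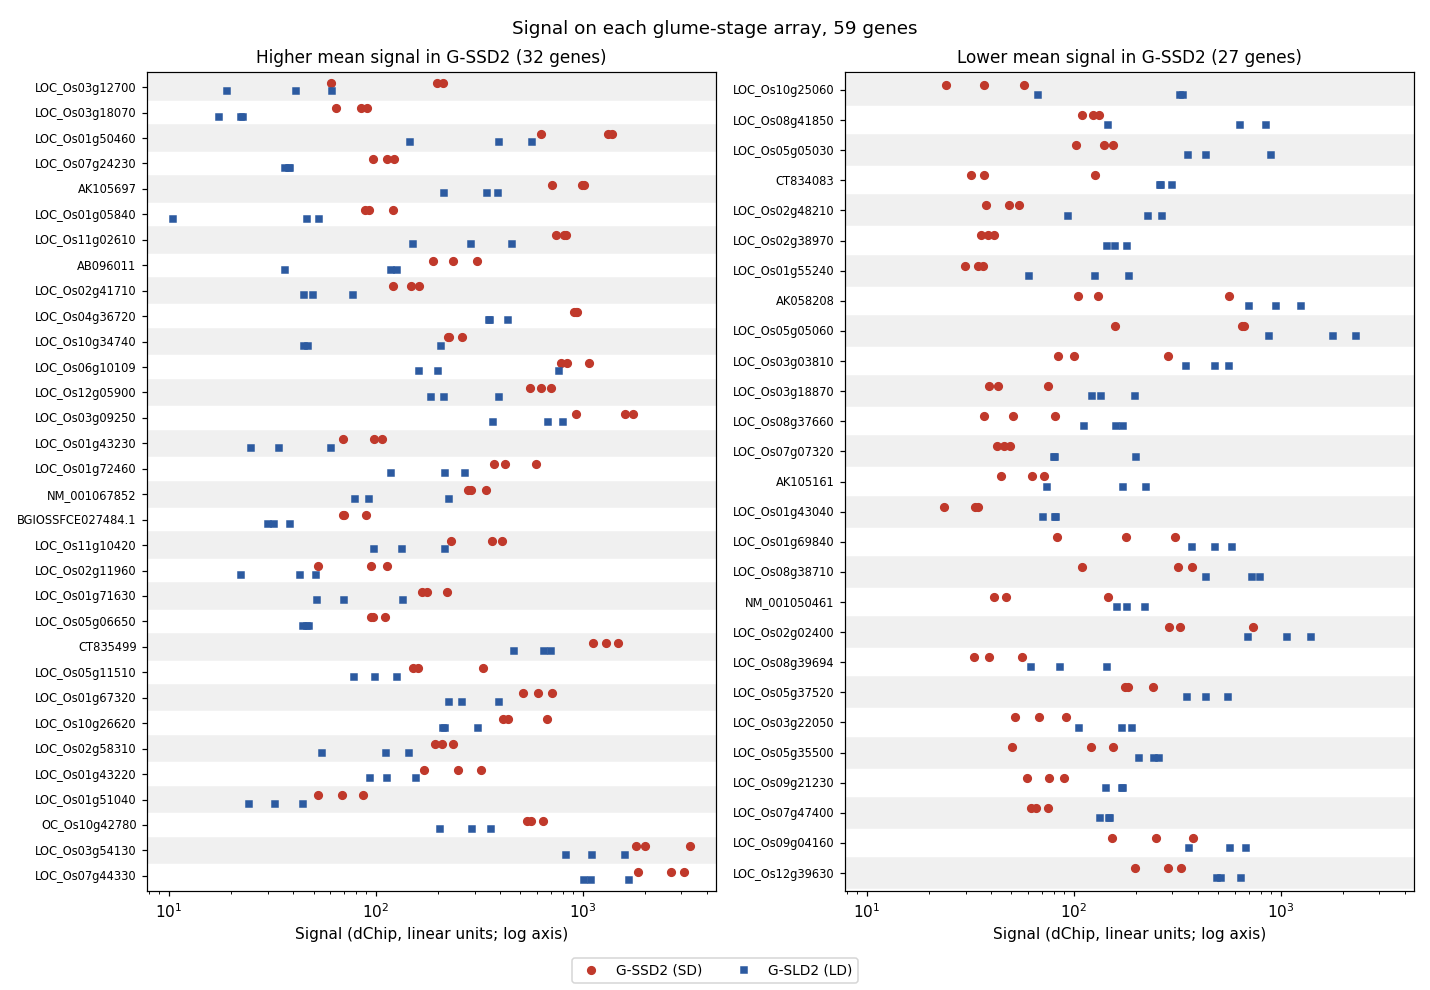
Signal of each of the 59 genes on the 6 glume-stage arrays (x axis, linear dChip units drawn on a log axis), with the 3 G-SSD2 arrays as circles above and the 3 G-SLD2 arrays as squares below in each row. The left panel holds the 32 genes higher in G-SSD2 and the right panel the 27 lower ones, and the circles and squares of a row overlap in 3 genes.

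The 4 genes grouped by hand under plastid transcription and light response were all higher in G-SSD2, with ratios between 2.11 and 2.86. The groups were set with the values known, so the common direction is no finding. Regulators placed under other gene regulation ran both ways, such as mybHv5 at 0.46 and the H-protein promoter binding factor-2a gene at 2.07. AK105697 was annotated as RNA polymerase sigma factor rpoD, a type of nuclear-encoded protein that directs the bacterial-type RNA polymerase to chloroplast promoters. Its signals were 1017, 988 and 707 in G-SSD2, against 345, 388 and 214 in G-SLD2, a ratio of 2.86 (log2 difference 1.54 ± 0.31, SE, n = 3 each). A further gene with the same annotation, AB096011, gave 308, 237 and 189 in G-SSD2, against 126, 118 and 36.3 in G-SLD2, a ratio of 2.61 (log2 difference 1.56 ± 0.62, SE, n = 3 each). In both sigma factor genes the third repeat was the lowest of its group in SD and in LD, and the groups did not overlap. RPT2-like LOC_Os11g02610, related to an Arabidopsis protein that acts with the phototropin blue-light receptors, had 834, 744 and 810.1 in G-SSD2, against 289, 455 and 151 in G-SLD2, a ratio of 2.67. Its SD arrays were close together and its LD arrays spread about their mean. The salt tolerance-like gene LOC_Os05g11510.1, whose Arabidopsis namesake is a B-box protein of light signalling, had 161, 151 and 329 in G-SSD2, against 98.6, 78.6 and 126 in G-SLD2, a ratio of 2.11. Here the third SD array stood above the others, and without it the ratio was 1.54. Another gene annotated as a sigma factor, LOC_Os05g51150, was in the lists of both stages and lower in SD in each, so the 3 listed sigma factor genes did not all run the same way.

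Grouped by hand under membrane transport and channels were 8 members, not every membrane protein among the 59. Of these, 7 were higher in G-SSD2, with ratios between 2.05 and 3.01, and 1 was lower. This group too was set with the values known, so nothing is read from that count. The seven-transmembrane-domain protein 1 gene LOC_Os01g50460.1 had 1391, 1326 and 627 in G-SSD2, against 395, 569 and 146 in G-SLD2, a ratio of 3.01 (log2 difference 1.71 ± 0.69, SE, n = 3 each). Its lowest SD signal was only just above its highest LD signal. The folate/biopterin transporter gene LOC_Os07g24230.1, of a family that carries folates and related pterins across membranes, had 123, 113 and 97.4 in G-SSD2, against 38.3, 36.4 and 38.2 in G-SLD2, a ratio of 2.95 (log2 difference 1.55 ± 0.10, SE, n = 3 each). The ferric reductase-like gene LOC_Os04g36720.1, whose family reduces iron at membranes before uptake, had 941, 906 and 927 in G-SSD2, against 353, 358 and 434 in G-SLD2, a ratio of 2.42 (log2 difference 1.28 ± 0.10, SE, n = 3 each). In these last 2 genes all 6 arrays were tight within their group. Cyclic nucleotide-gated ion channel 15, LOC_Os02g41710.1, a family of calcium-permeable channels in plants, had 121, 149 and 162 in G-SSD2, against 49.5, 44.9 and 77.2 in G-SLD2, a ratio of 2.52.

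The lrgB-like gene OC_Os10g42780, spelled so in the list, belongs to a family that in Arabidopsis includes the chloroplast envelope carrier for glycolate and glycerate of photorespiration. It had 565, 645 and 539.9 in G-SSD2, against 291, 359.9 and 204 in G-SLD2, a ratio of 2.05. ATATH5, LOC_Os02g11960.1, named for an Arabidopsis ABC transporter, had 94.6, 52.4 and 113 in G-SSD2, against 42.8, 22.3 and 51.6 in G-SLD2, a ratio of 2.23. Transmembrane protein 16K, LOC_Os01g51040.1, of the anoctamin family, had 86.8, 52.5 and 68.9 in G-SSD2, against 44.5, 32.7 and 24.5 in G-SLD2, a ratio of 2.05. Both were dim in LD, and the ranges of ATATH5 nearly met. The 1 lower transporter, the amino acid transporter gene LOC_Os01g43040.1, had 34.3, 33.3 and 23.5 in G-SSD2, against 81.8, 80.8 and 71.4 in G-SLD2, a ratio of 0.389 (log2 difference -1.38 ± 0.19, SE, n = 3 each). Its dimmest LD signal was over 2-fold above its brightest SD signal, on low signals in both groups.

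Metabolic enzymes divided, with 6 higher and 3 lower in G-SSD2. FAD7, LOC_Os03g18070.1, encodes the plastid omega-3 desaturase that makes the trienoic fatty acids of chloroplast membranes, and it had 84.6, 90.3 and 64.2 in G-SSD2, against 22.9, 17.4 and 22.2 in G-SLD2, a ratio of 3.82 (log2 difference 1.93 ± 0.20, SE, n = 3 each). This was the highest ratio of any annotated member, and the groups were well apart although the LD signals were dim. Inositol-3-phosphate synthase, LOC_Os03g09250, which makes the first intermediate of inositol from glucose 6-phosphate, had 1749, 1603 and 933 in G-SSD2, against 808, 679 and 367 in G-SLD2, a ratio of 2.31 (log2 difference 1.23 ± 0.45, SE, n = 3 each). The pyruvate dehydrogenase kinase (PDK) gene LOC_Os07g44330, whose product switches off the mitochondrial pyruvate dehydrogenase complex by phosphorylation, had 3084, 2682 and 1859.5 in G-SSD2, against 1099, 1677 and 1020.1 in G-SLD2, a ratio of 2.01 (log2 difference 1.01 ± 0.31, SE, n = 3 each). PDK was the brightest of the higher genes. In PDK the third repeat was the lowest in both groups, as was that of inositol-3-phosphate synthase.

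Retinol dehydrogenase 11, LOC_Os01g05840, a name from animals for a short-chain dehydrogenase, had 92.6, 122 and 89.1 in G-SSD2, against 53.0, 46.4 and 10.5 in G-SLD2, a ratio of 2.76. The third LD array was the lowest of its group, and the ratio was 2.03 without it. NADPH quinone oxidoreductase 2, LOC_Os01g72460.1, an enzyme that reduces quinones, had 598, 373 and 419 in G-SSD2, against 216, 271 and 119 in G-SLD2, a ratio of 2.29. The O-glycosyl hydrolase gene LOC_Os01g43220.1, an enzyme class that cuts sugar bonds, had 171, 324 and 249 in G-SSD2, against 156, 113 and 93.6 in G-SLD2, a ratio of 2.05, and its nearest signals were close.

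Of the lower enzymes, stachyose synthase LOC_Os08g38710.1, which extends raffinose-family sugars, had 320.4, 110.1 and 375 in G-SSD2, against 435, 729.9 and 792 in G-SLD2, a ratio of 0.411 (log2 difference -1.42 ± 0.62, SE, n = 3 each). Cytochrome P450 76C2, LOC_Os08g39694, had 32.9, 56.5 and 39.0 in G-SSD2, against 85.8, 61.9 and 144 in G-SLD2, a ratio of 0.44. The gene annotated only as catalytic/ligase, LOC_Os09g21230, had 89.7, 76.0 and 59.6 in G-SSD2, against 174, 170.4 and 143 in G-SLD2, a ratio of 0.462. All 3 kept separate ranges, and the spread was widest among the SD arrays of stachyose synthase.

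Signalling genes were 2 higher and 4 lower in G-SSD2. Gibberellin 2-beta-dioxygenase LOC_Os01g55240.1, which inactivates gibberellins, had 34.3, 36.4 and 29.9 in G-SSD2, against 60.8, 185 and 127 in G-SLD2, a ratio of 0.27 (log2 difference -1.75 ± 0.48, SE, n = 3 each). Its SD signals were dim and close, and its LD signals were spread 3-fold. SAPK9, LOC_Os12g39630.1, a SnRK2-type kinase of the abscisic acid and osmotic stress response, had 199, 285 and 331 in G-SSD2, against 493, 641 and 517 in G-SLD2, a ratio of 0.493 (log2 difference -1.04 ± 0.25, SE, n = 3 each). CIPK15, LOC_Os03g22050, a kinase driven by the CBL calcium sensors, had 52.0, 67.9 and 92.2 in G-SSD2, against 106, 172 and 192 in G-SLD2, a ratio of 0.452. Lectin receptor kinase 1, LOC_Os02g48210.1, had 54.2, 48.6 and 37.8 in G-SSD2, against 93.4, 269 and 229 in G-SLD2, a ratio of 0.238. For each of these 4 genes every LD array was above every SD array.

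The 2 higher signalling genes act on membranes and small GTPases. Rac GTPase activating protein 1, LOC_Os12g05900, which turns off Rac-type (in plants, ROP) GTPases, had 555, 701 and 626 in G-SSD2, against 396, 185 and 213 in G-SLD2, a ratio of 2.37. 1-Phosphatidylinositol 4-kinase, LOC_Os11g10420, which makes phosphatidylinositol 4-phosphate, had 366, 407 and 229.9 in G-SSD2, against 133, 215 and 97.7 in G-SLD2, a ratio of 2.25. The kinase's lowest SD signal was close to its highest LD signal.

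All 5 genes grouped by hand under stress, redox and defence had lower mean signals in G-SSD2, with ratios between 0.337 and 0.470. The groups were set with the values known, so the common direction is no finding. Enzymes of oxidation and reduction placed in other groups ran both ways. NADPH quinone oxidoreductase 2 was at 2.29, the ferric reductase-like gene at 2.42 and cytochrome P450 76C2 at 0.44. Catalase isozyme A, LOC_Os02g02400, which breaks down hydrogen peroxide, had 289.6, 325 and 734 in G-SSD2, against 1078, 692 and 1404 in G-SLD2, a ratio of 0.425 (log2 difference -1.31 ± 0.52, SE, n = 3 each). The third SD signal exceeded the second LD signal, so the groups overlapped, while each repeat number was lower in SD. The SRC2 gene LOC_Os07g47400.1, named for a cold-regulated gene of soybean, had 65.8, 74.8 and 62.4 in G-SSD2, against 133, 148 and 150.4 in G-SLD2, a ratio of 0.47 (log2 difference -1.09 ± 0.09, SE, n = 3 each), with tight groups. Glutathione S-transferase GSTU6, LOC_Os07g07320.1, of a family that conjugates glutathione to toxic compounds, had 42.7, 46.0 and 49.1 in G-SSD2, against 80.2, 200.0 and 81.1 in G-SLD2, a ratio of 0.381. The second LD array was well above the others, and without it the ratio was 0.57. The blue copper protein gene LOC_Os08g37660.1 had 80.9, 50.9 and 37.1 in G-SSD2, against 160.5, 112 and 174 in G-SLD2, a ratio of 0.379. The flower-specific gamma-thionin precursor LOC_Os03g03810.1, by its annotation a small defensin-type peptide of flowers though measured here in leaf, had 287, 101 and 83.5 in G-SSD2, against 349, 564 and 483 in G-SLD2, a ratio of 0.337. The first SD array was high, and without it the ratio was 0.198.

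Protein folding and turnover gave 1 higher and 2 lower genes. Ubiquitin ligase MIB2, LOC_Os02g38970, named for a protein of animals that tags targets with ubiquitin, had 38.7, 41.3 and 35.5 in G-SSD2, against 181, 145 and 158 in G-SLD2, a ratio of 0.239 (log2 difference -2.06 ± 0.11, SE, n = 3 each). It had the widest gap of the 59 genes between its nearest SD and LD signals, at 3.51-fold. The dnaJ chaperone gene LOC_Os03g18870.1, a co-chaperone of heat shock protein 70, had 42.9, 38.9 and 75.1 in G-SSD2, against 123, 197 and 135 in G-SLD2, a ratio of 0.345. Cysteine protease 1, LOC_Os03g54130.1, had 1812, 3294 and 2011 in G-SSD2, against 827, 1106 and 1597 in G-SLD2, a ratio of 2.02. The protease was bright in all 6 arrays, and its second SD array was the highest.

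Other gene regulation was divided 2 and 2. The putative H-protein promoter binding factor-2a gene LOC_Os10g26620.1, named for the promoter of a glycine decarboxylase subunit, had 672, 437 and 414 in G-SSD2, against 215, 310.3 and 212 in G-SLD2, a ratio of 2.07. Protein arginine N-methyltransferase 6, LOC_Os10g34740.1, which methylates arginines of proteins including histones, had 226, 224 and 261 in G-SSD2, against 45.1, 206 and 47.2 in G-SLD2, a ratio of 2.38. The second LD array was near the SD level, and the ratio was 5.14 without it. The mybHv5 gene LOC_Os05g35500.1, named for a MYB gene of barley, had 121, 155 and 50.5 in G-SSD2, against 207, 259 and 245 in G-SLD2, a ratio of 0.46. The HAT/TPR motif gene for RNA processing, LOC_Os05g37520.1, had 177, 241 and 183 in G-SSD2, against 555, 352 and 437 in G-SLD2, a ratio of 0.447. In the MYB gene the third SD array was the lowest.

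**Figure D2:**
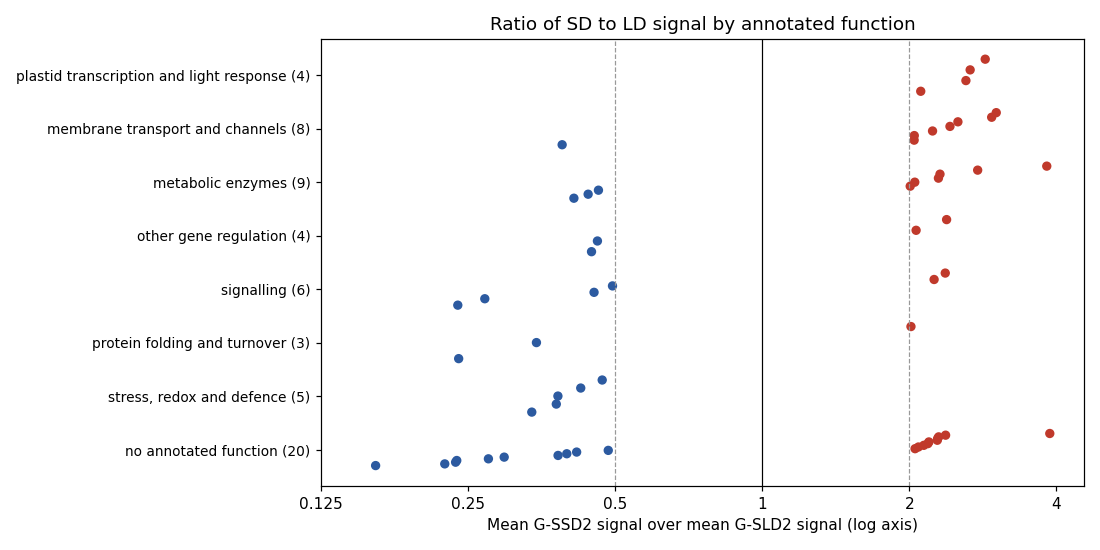
Ratio of the mean G-SSD2 signal to the mean G-SLD2 signal (x axis, log scale) for each gene, in rows by annotated function with the number of genes in parentheses. Dashed lines mark 2 and 0.5, between which no gene can lie. The row for plastid transcription and light response holds only ratios over 2, and that for stress, redox and defence only ratios under 0.5. Rows were assigned by hand with the values known, so a row with 1 direction is no finding.

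No function was annotated for 20 genes, 10 higher and 10 lower in G-SSD2. The highest ratio of all 59 belonged to LOC_Os03g12700.1, which had 198, 211 and 60.9 in G-SSD2, against 40.9, 61.1 and 19.0 in G-SLD2, a ratio of 3.88 (log2 difference 1.91 ± 0.76, SE, n = 3 each). The third SD signal was just under the second LD signal, and the third repeat was the lowest in both groups. The next 3 were LOC_Os06g10109.1 at 2.37, LOC_Os01g43230.1 at 2.30 and NM_001067852 at 2.29. For LOC_Os06g10109.1 the signals were 783, 837 and 1071 in G-SSD2, against 201, 162 and 771 in G-SLD2, and without the third LD array, the only one near the SD level, the ratio was 4.95. LOC_Os01g43230.1 had 98.1, 107 and 69.1 in G-SSD2, against 60.8, 24.9 and 33.9 in G-SLD2. NM_001067852 had 288, 278 and 342 in G-SSD2, against 225, 92.9 and 78.9 in G-SLD2, and without its first LD array the ratio was 3.52. The other 6 higher genes without a function had ratios between 2.06 and 2.28.

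The lowest ratio of all was that of LOC_Os10g25060.1, which had 36.7, 24.1 and 57.2 in G-SSD2, against 67.0, 336 and 327 in G-SLD2, a ratio of 0.161 (log2 difference -2.40 ± 0.85, SE, n = 3 each). The first LD array stayed near the SD level and the other 2 were far above it. LOC_Os08g41850.2 had 132, 110.1 and 124 in G-SSD2, against 634, 146 and 855 in G-SLD2, a ratio of 0.224, again with 1 LD array just above the SD range. LOC_Os05g05030.1 had 155, 103 and 140.3 in G-SSD2, against 897, 436 and 357 in G-SLD2, a ratio of 0.235. CT834083 had 32.0, 36.7 and 127 in G-SSD2, against 299.7, 263 and 264 in G-SLD2, a ratio of 0.237, and the ratio was 0.125 without the third SD array, the highest of its group. The other 6 had ratios between 0.275 and 0.484. Of these, AK058208 and NM_001050461 also had 1 high SD array, the second, and their ratios were 0.121 and 0.235 without it, against 0.275 and 0.417 with it.

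**Figure D3:**
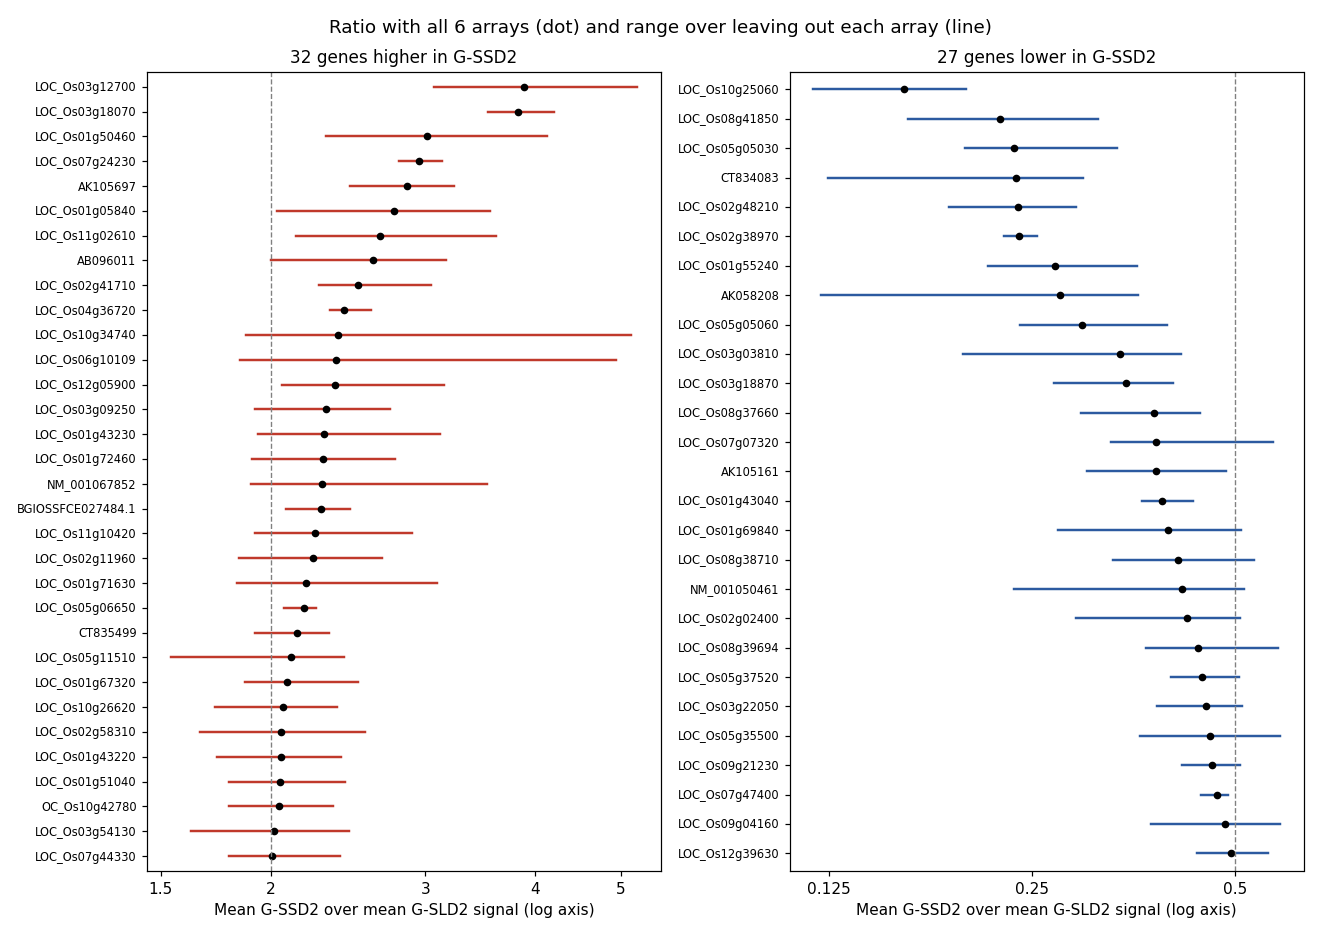
Ratio of mean G-SSD2 to mean G-SLD2 signal for each gene (x axis, log scale) with all 6 arrays (dot), and the lowest and highest ratio when each array was left out in turn (line), with the threshold of 2 or 0.5 dashed. No line crosses 1, which none could do in the 56 genes with separate ranges. The longest lines belong to genes with 1 array far from its group, such as LOC_Os10g34740.1, LOC_Os06g10109.1, CT834083 and AK058208.

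Leaving out any 1 array turned no gene's direction, but in the 56 genes with separate ranges it could not have done so. A ratio past the threshold was kept each time by 27 of the 59. The ratio moved by over 1.5 times without 1 array in 7 genes, all given above. FAD7, the folate/biopterin transporter, the ferric reductase-like gene and LOC_Os05g06650.1 were among the steadiest of the higher genes, and MIB2 and the amino acid transporter among the steadiest of the lower ones.

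Within a group, the third repeat stood apart in the higher genes. Its median deviation from the mean of its group on the log2 scale was -0.13 in G-SSD2 and -0.35 in G-SLD2, and it was the lowest of the 3 arrays in 18 of the 32 genes in G-SSD2 and in 20 of the 32 in G-SLD2. In the 27 lower genes the median deviations of the third repeat were -0.11 in G-SSD2 and 0.03 in G-SLD2. Deviations of the third SD array and the third LD array correlated over the 59 genes (Pearson's r = 0.37), and over the 25360 probe sets the same r was 0.32, as a description across features that share the arrays. For the first repeats r was 0.01 over the 59 genes and 0.20 over the probe sets, and for the second repeats it was 0.02 over the genes and -0.0015 over the probe sets. Differently numbered arrays reached r = 0.25 (first SD, second LD) and r = 0.23 (second SD, first LD) over the 59 genes. What the third repeats share was not tested.

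**Figure D4:**
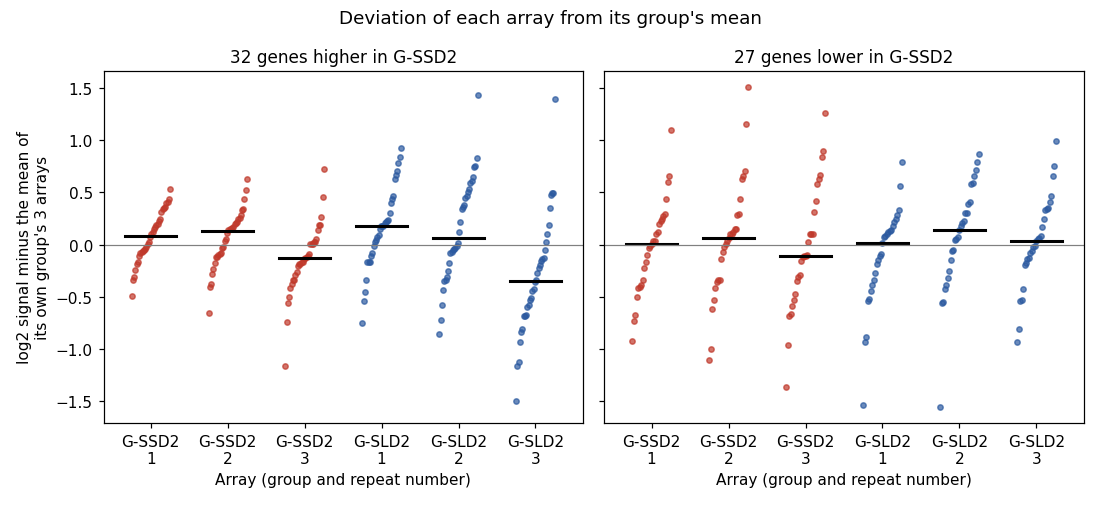
Deviation of each gene on each array from the mean log2 signal of the 3 arrays of its group (y axis, log2 units), with the G-SSD2 arrays left of the G-SLD2 arrays and a bar at the median. In the 32 higher genes (left panel) the third G-SLD2 array has its median at -0.35 and the third G-SSD2 array at -0.13, and the medians of the 27 lower genes (right panel) run from -0.11 to 0.14.

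Absolute signals were modest. Mean signals of the higher genes ran from 69.4 to 2542 in G-SSD2 and from 20.8 to 1265 in G-SLD2, and those of the lower genes from 30.4 to 492 in G-SSD2 and from 78.0 to 1661 in G-SLD2. In 16 of the 59 genes the group with the lower mean was under 50, 9 of them higher and 7 lower in G-SSD2. With signals under 50 raised to 50, 51 of the 59 kept a 2-fold ratio. The median coefficient of variation in the 32 higher genes was 17.4% in G-SSD2 and 34.9% in G-SLD2, and in the 27 lower genes it was 28.6% in G-SSD2 and 28.5% in G-SLD2.

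After each group's mean was taken off, the likeness of 2 members was measured as Pearson's r over the 6 arrays, for 1711 pairs and with no test. The median r was 0.06, and 50 pairs had r of at least 0.9. With only 6 arrays and both group means taken off, unrelated genes can also reach a high r. The share of such pairs among other probe sets was not counted, so nothing is read from the 50. The highest was between the sigma factor gene AK105697 and the seven-transmembrane-domain protein 1 gene LOC_Os01g50460.1 (r = 0.998), both low in the third repeats. The pair of sigma factor genes had r = 0.93, and gibberellin 2-beta-dioxygenase and lectin receptor kinase 1, both lower in SD, had r = 0.96. High r also joined genes of opposite direction. Protein arginine N-methyltransferase 6 (higher in SD) and GSTU6 (lower) had r = 0.997, and the salt tolerance-like gene (higher) and catalase (lower) had r = 0.977. SAPK9 and CIPK15 had r = 0.74.

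Chromosomes could be read from the locus number of 50 genes, and the other 9 carried accessions. Chromosome 1 held 8 higher and 3 lower genes, and chromosome 8 held 4 genes, all lower, from blue copper protein LOC_Os08g37660 to LOC_Os08g41850.2. Locus numbers rise along a chromosome, usually in steps of 10. The O-glycosyl hydrolase LOC_Os01g43220.1 and the gene without annotation LOC_Os01g43230.1 were 1 step apart and both higher in SD, with r = 0.45 between their deviations. LOC_Os05g05030.1 and LOC_Os05g05060.1 were 30 apart and both lower, at 0.235 and 0.296, with r = 0.11. A total of 4 members had a gene of the later stage's list within 100 of their own number, and each neighbour ran the same way there as its member did at the glume stage. Nearest was LOC_Os12g05890, next to the rac GTPase activating protein gene, with a ratio of 6.79 in P-SSD2 over P-SLD2. Whether neighbouring genes share probes was not tested. How often other listed genes have such neighbours, or share a direction on a chromosome, was not counted, so nothing is read from these positions.

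For most of the pathways looked up by name among the lists, the member was the only one listed. Catalase, gibberellin 2-beta-dioxygenase, SAPK, CBL-interacting kinase, stachyose synthase and glutathione S-transferase each had 1 gene, lower in SD. The omega-3 desaturase, inositol-3-phosphate synthase and PDK each had 1 gene, higher in SD. None of these 9 names occurred in the list for the pistil/stamen stage. The names were taken from the members, which are absent from that list by rule. Only further genes of the same name could have appeared, so nothing is read about the pathways at that stage. How the 59 genes behaved at that stage was not analysed here, and a gene missing from that list may still have differed there.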

How the data were processed

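RNA from leaves of Nongken 58S was measured on 12 Affymetrix Rice Genome Arrays in 4 groups of 3 biological repeats. For each stage the authors deposited a list of genes with 6 linear intensity values each, which the methods trace to dChip (invariant-set scaling, background taken as 5% of the perfect-match probe signals). They also deposited probe-set intensities for the whole array, 57381 probe sets. The processing notes name GCOS 1.4. The lists' own columns of fold and P value hold the authors' comparisons and entered no result. The P values were looked at only to see whether they crossed the threshold in the methods. Array number limits the precision.

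Gene IDs were matched between lists without version suffixes. Groups are given as means of 3 signals with their ratio, and log2 differences with an SE from the 3 and 3 arrays. Members, functional groups and lists were chosen with earlier results of these data known. Functional groups were assigned by hand from the annotations. They merge some of the planned groups and split others, such as the planned group of transcription and light signalling factors. Every annotated gene is named, with the 4 most extreme genes without annotation in each direction. The background was counted after quantile normalization, without 187 control and reporter probe sets, over those that reached an array's percentile 60 in 3 arrays or more. Ratio and overlap counts were tested on simulated data. Python 3.11.15, numpy 2.4.6 and pandas 2.3.3 were used. A limma comparison of stages, promoter motifs and leaf markers were not analysed here, since no table used pairs probe sets with genes, and 0 of the 59 IDs matched the RefSeq table.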

Additional observations from a re-analysis of the deposited data

How the results depend on the processing

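The 32 higher and 27 lower genes kept their directions with the ratio taken from means of log2 signals or from medians, and with each array left out. In the 56 genes with separate ranges no other outcome was possible. All 59 were at least 2-fold with means of log2 signals and 50 with medians. The number at least 2-fold was between 41 (without the third G-SLD2 array) and 54 with 1 array left out, and between 46 and 49 with a repeat number left out of both groups. The number with separate ranges was between 56 and 58 with 1 array left out. Leaving out arrays can only keep or widen a separation, so this number could not fall below the 56 found with all arrays. In a paired reading with the repeat number as a block, all 59 ran in 1 direction in the 3 same-numbered pairs, but repeat numbers may share only a number and the lists were selected on these arrays. With a repeat number left out of both groups, settings chosen after seeing the data, the number with separate ranges was 56 without repeat 1, 59 without repeat 2 and 59 without repeat 3. For the same reason these numbers could not fall below 56. With IDs matched as exact strings there would be 61 members. Across the array, 845 probe sets were at least 2-fold and 2126 had separate ranges, and without the filter on dim probe sets these numbers were 10157 and 5170. With signals as deposited, 58.6% of the 2-fold probe sets were higher in SD, against 47.5% after quantile normalization, and 71.6% of those with separate ranges, against 53.5%. Dim signals and 3 arrays a group limit every ratio.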
